A study of Rattus norvegicus with 2 samples.

Results

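Solute carriers (Slc genes) are membrane proteins that move sugars, amino acids, organic ions, metals, nucleotides and other small molecules across cell and organelle membranes, grouped by sequence into numbered families. Every library spot with a symbol of Slc followed by a number was taken, which gave 255 of 21766 library spots, 1 probe each, for 236 symbols in 46 families. Of these symbols, 3 are named for a carrier and code for a protein of another kind, and they were kept: Slc4a1ap, Slc7a6os and Slc9a3r2. The data were 2 dye-swapped two-colour arrays with mouse probes, hybridised with liver cDNA of adult male Wistar rats with streptozotocin diabetes. The γ-conglutin pool held RNA of 5 rats given this lupin seed protein at 120 mg/kg for 7 days, and the vehicle pool held RNA of 5 rats given 0.9% NaCl. Rats in both pools had received streptozotocin at 65 mg/kg after a 12 h fast and had a glycaemia above 200 mg/dl at 72 h, so no rat without diabetes was measured. Array 1 carried the γ-conglutin pool in Alexa647 and the vehicle pool in Alexa555, and array 2 carried them with the dyes exchanged.

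In liver, the facilitative carriers of the Slc2 family let glucose and fructose pass across the hepatocyte membrane, and Slc37a4 carries glucose 6-phosphate into the endoplasmic reticulum, where glucose is released. Slc10 and Slc22 carriers take up bile acids, drugs and other organic ions from blood, Slc7 and Slc38 carriers take up amino acids, and the Slc25 family links the mitochondrial matrix with the cytosol. Several of these carriers are regulated by insulin, fasting or diabetes.

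Each treatment was 1 pool measured on 2 technical repeats, so there is no replicate check over rats and no test or p-value. Every ratio below is on the log2 scale with γ-conglutin on top and vehicle below, for each array or as the mean ± SD over both arrays (n = 2, technical). This SD takes in the effect of the exchanged dyes. Normalised intensities are background-corrected and loess-normalised values per pool and array, on the linear scale, and include an offset of 50. They were not scaled between the arrays, so the pools are compared within an array. Each value is that of the probe that carries the symbol, and a mouse probe may bind the rat transcript to an unknown degree. In a bulk tissue pool, fewer cells of a type and less RNA per cell cannot be told apart.

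All 255 member probes were above background by the rule applied to all probes (more than 2 background SD in at least 1 channel of both arrays). A stricter level, the 95th percentile of empty spots in both channels of both arrays, was passed by 249 of them (97.6%), against 94.3% of all 21702 probes kept. The 6 that missed it carried the symbols Slc7a11, Slc25a3, Slc25a27, Slc25a31, Slc25a44 and Slc44a2. Median raw intensities of the members were 1285 (γ-conglutin, Alexa647) and 1788 (vehicle, Alexa555) on array 1, and 1538 (γ-conglutin, Alexa555) and 1068 (vehicle, Alexa647) on array 2, over median backgrounds of 37.7 to 48.3. No member had a mean raw intensity at the saturation level (at least 65000), and the highest was 54480. A mean over a spot does not show whether single pixels were saturated. Across the 255 probes the ratios of the 2 arrays had a Pearson's r of -0.29, against -0.44 across all probes. With the deposited net intensities r was -0.28 for members and -0.24 for all probes, with the deposited ratio -0.29 and -0.26, and with median centring -0.61 and -0.68, so which of the pair was nearer 0 depended on the processing. In all, 156 of the 255 had opposite signs on the 2 arrays. Directions rest on the dyes as the labels state them.

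The hepatocyte marker list was detected above the empty-spot level with all of its 19 probes (15 of 16 symbols on the array). Of 12 carriers known for liver, such as Slc2a2, Slc10a1 and Slc27a5, all 12 probes of the 11 symbols measured passed that level. The same held for all 12 probes of carriers known for neurons (9 symbols, such as Slc6a3 and Slc17a7) and all 10 probes of carriers known for the kidney tubule (such as Slc5a2 and Slc12a3), which liver is not known for. Whether those probes bound the named rat transcripts was not tested.

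A 1.5-fold difference shared by both arrays was found for 0 Slc probes upwards and 0 downwards, where 0% of all 21702 probes were higher and 0% were lower. Over all probes, 33 were higher and 26 lower with plain background subtraction, 32 and 23 with the deposited net intensities, and 25 and 19 with the deposited ratio, with 0 members among them. When the size asked for on each array was 0.32 on the log2 scale, 0 of 255 member probes were higher (0.00461% of all probes) and 2 were lower (0.304% of all probes), namely those of Slc16a14 and Slc35e3. Mean log2 ratios ran from -0.60 to 0.29, with a median of 0.03 against 0.01 over all probes, and 151 of them were above 0 (59.2%, against 53.0% of all probes). The median was -0.01 on array 1 and 0.03 on array 2. The SD of the means across members was 0.14, against 0.12 across all probes, and 245 members lay within 0.32 of 0 (96.1%, against 97.6% of all probes). A mean at or below -0.32 was found for 10 members (3.92%, against 2.29% of all probes) and a mean at or above 0.32 for 0 members. Of the 10, 9 were negative on both arrays and 7 were among the brightest 20% of probes. Among all 498 probes with such means, 300 were in that brightest group. The part of brightness in these low ratios was not tested.

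The sign was shared by the arrays for 99 of 255 member probes (38.8%, against 32.7% of all probes). This gap was smallest or turned round under 4 of the other settings, with 36.9% of members and 39.2% of all probes with the deposited net intensities, 39.6% and 39.8% with the deposited ratio, 38.04% and 37.87% with print-tip loess, and 27.8% and 26.4% with median centring. Of these 99, 58 were positive on both arrays (22.7%, against 16.6% of all probes) and 41 were negative on both (16.1%, against 16.1%). The median SD over the arrays was 0.16 for the members and 0.16 for all probes. For 76 of the 255 members the size of the mean exceeded its SD over the arrays.

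**Figure D1:**
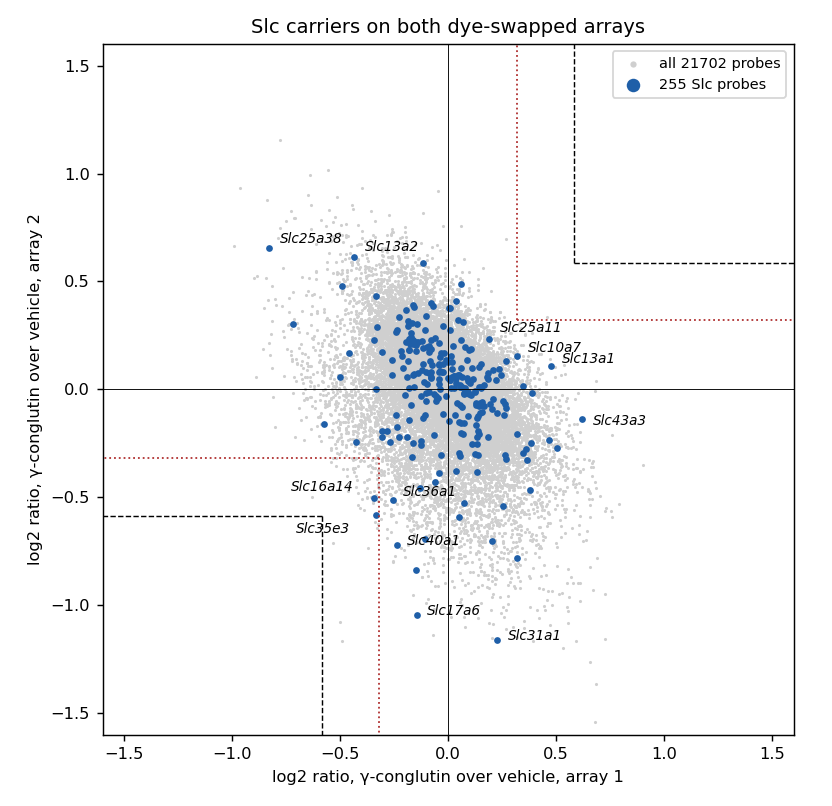
Log2 ratio, γ-conglutin over vehicle, on array 1 (horizontal) and array 2 (vertical), with all 21702 probes in grey and the 255 Slc probes in blue; dashed black lines bound the corners beyond 1.5-fold on both arrays, and dotted red lines those beyond 0.32. The black corners hold no Slc probe, the lower red corner holds Slc16a14 and Slc35e3, and the cloud runs from upper left to lower right, with an r of -0.29 for the Slc probes.

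The lowest ratios held by both arrays belonged to carriers of unlike substrates. Slc16a14, a member of the monocarboxylate carrier family with no well-known substrate, had normalised intensities of 7014 in the γ-conglutin pool and 8889 in the vehicle pool on array 1, and 5564 (γ-conglutin) and 7897 (vehicle) on array 2. The γ-conglutin pool was the lower on each array, and the log2 ratio was -0.42 ± 0.12, with -0.34 on array 1 and -0.51 on array 2. This ratio ran from -0.42 to -0.37 over the processing settings that used both arrays. The probe of Slc35e3 that stood out, from the nucleotide sugar carrier family, had 27861 in the γ-conglutin pool and 35171 in the vehicle pool on array 1, and 21304 (γ-conglutin) and 31870 (vehicle) on array 2. Its ratio was -0.46 ± 0.17, and the other Slc35e3 probe on the array did not share it, with 0.02 ± 0.13. Slc35e3 missed the size of 0.32 on both arrays under median centring, print-tip loess, the deposited net intensities and the deposited ratio, and Slc16a14 missed it under median centring. Slc40a1 reached it with print-tip loess, the net intensities and the deposited ratio, and Slc25a3, named after its values were seen, with plain background subtraction.

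Slc36a1, a lysosomal carrier of small amino acids, fell short of that size on array 1 alone (-0.26). It had 17330 in the γ-conglutin pool and 20721 in the vehicle pool on array 1, and 14060 (γ-conglutin) and 20041 (vehicle) on array 2, a ratio of -0.38 ± 0.18. Slc40a1, the iron exporter ferroportin, had 307.5 in the γ-conglutin pool and 363.0 in the vehicle pool on array 1, and 267.8 (γ-conglutin) and 441.2 (vehicle) on array 2. Its ratio of -0.48 ± 0.34 rested mostly on array 2 (-0.72, against -0.24 on array 1). Ferroportin is known from macrophages and hepatocytes and is tied to red cell turnover. In the marker list of red cell precursors, 3 of 4 probes were negative on both arrays, as were 16.1% of all probes. Of the 4, 1 was not above the empty-spot level. The summed normalised intensity of the 4 was 5094 in the γ-conglutin pool and 5444 in the vehicle pool on array 1, and 4584 (γ-conglutin) and 4356 (vehicle) on array 2. For the 3 Kupffer cell probes measured, the sums were 4020 in the γ-conglutin pool and 4243 in the vehicle pool on array 1, and 4280 (γ-conglutin) and 3718 (vehicle) on array 2. The part of either cell type in the Slc40a1 ratio was not tested.

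Other probes among the 8 lowest by the smaller of their 2 ratios were 3 of the mitochondrial family and 1 of the zinc carrier family. The latter, Slc30a6, had nearly equal ratios of -0.23 and -0.22 at 1 probe, but the other Slc30a6 probe had 0.27 on array 1 and -0.32 on array 2.

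By the same measure, the probes positive on both arrays had smaller ratios. Slc25a11, the 2-oxoglutarate and malate exchanger of the malate-aspartate shuttle, had 18328 in the γ-conglutin pool and 16097 in the vehicle pool on array 1, and 19397 (γ-conglutin) and 16514 (vehicle) on array 2. The γ-conglutin pool was the higher on each array, with a ratio of 0.21 ± 0.03, which ran from 0.16 to 0.21 over the settings with both arrays. Slc10a7, of the bile acid carrier family, had 21468 in the γ-conglutin pool and 17209 in the vehicle pool on array 1, and 20647 (γ-conglutin) and 18532 (vehicle) on array 2. Its ratio was 0.24 ± 0.12. Slc5a2, the sodium-glucose carrier of the kidney tubule that diabetes drugs block, had 47739 in the γ-conglutin pool and 39647 in the vehicle pool on array 1, and 44009 (γ-conglutin) and 40199 (vehicle) on array 2, a ratio of 0.20 ± 0.10 at a probe whose carrier is not known for a role in liver. Slc13a1, a sodium and sulphate carrier, had the highest mean of all members, 0.29 ± 0.26, from 0.47 on array 1 and 0.11 on array 2. The remaining 4 of the 8 highest were Slc38a9, a lysosomal arginine carrier and sensor (0.15 ± 0.06), Slc30a9 of the zinc carrier family (0.14 ± 0.03), the myo-inositol carrier gene Slc5a3 (0.12 ± 0.03) and 1 probe of the glutamate carrier gene Slc1a1 (0.11 ± 0.01). All 8 stayed below a log2 ratio of 0.32 on at least 1 array.

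**Figure D2:**
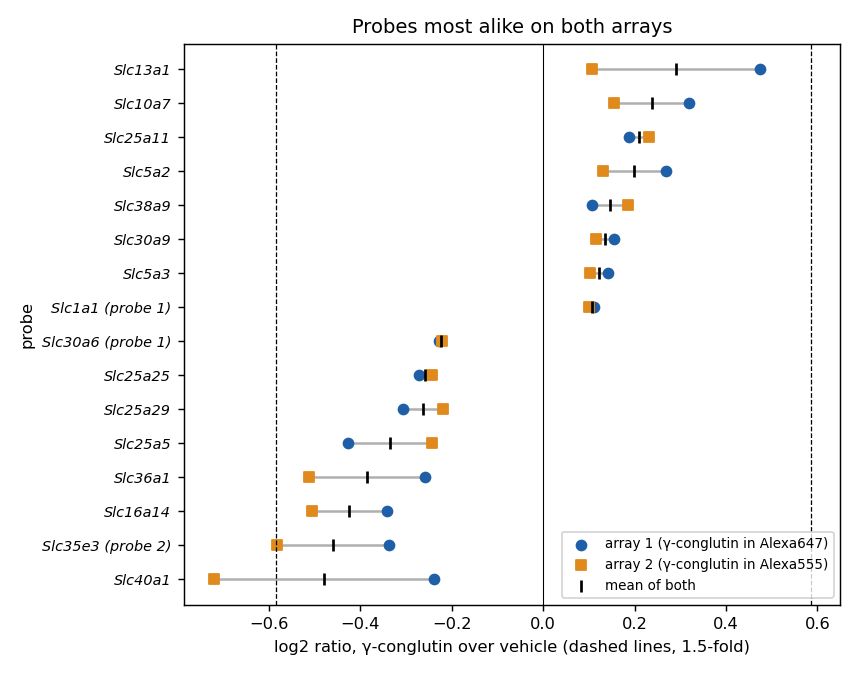
Log2 ratio, γ-conglutin over vehicle, on array 1 (circles) and array 2 (squares) and their mean (bars) for the 8 Slc probes highest and the 8 lowest by the smaller of their 2 ratios, with dashed lines at 1.5-fold. Slc30a6 probe 1, Slc25a25 and Slc1a1 probe 1 have nearly equal ratios on both arrays, and Slc40a1 has the widest gap, from -0.24 to -0.72.

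For carriers of glucose and other sugars, the question is whether treatment of diabetic rats went with a different transcript level of the proteins that let sugar in and out of the liver. The class (Slc2, Slc5, Slc37 and Slc45, which also takes in carriers of iodide, choline and inositol) had 18 probes with a median of 0.00 (array 1 gave 0.06, array 2 -0.01). Of the 18, 5 were positive on both arrays (27.8%, against 16.6% of all probes) and 1 was negative on both (5.6%, against 16.1%). By family, the 6 Slc2 probes had a median of -0.09 (0.05 on array 1, -0.22 on array 2). The 8 Slc5 probes had 0.03 (0.08 on array 1, 0.01 on array 2). Slc2a2, the main glucose carrier of hepatocytes, had 232.5 in the γ-conglutin pool and 224.4 in the vehicle pool on array 1, and 199.0 (γ-conglutin) and 221.3 (vehicle) on array 2. The arrays thus gave opposite directions at a dim probe. Slc2a5, the fructose carrier, was the lowest of the class, with 5087 in the γ-conglutin pool and 5569 in the vehicle pool on array 1, and 2138 (γ-conglutin) and 2932 (vehicle) on array 2, a ratio of -0.29 ± 0.23 that was negative on both arrays. The insulin-responsive carrier gene Slc2a4, best known from muscle and fat, had 0.06 on array 1 and -0.31 on array 2, and the urate carrier gene Slc2a9 had 0.05 and -0.29. Slc2a3 had -0.01 ± 0.09, and Slc2a8 had 0.08 ± 0.10. Slc37a4, the glucose 6-phosphate carrier needed for hepatic glucose release, had 4294 in the γ-conglutin pool and 4069 in the vehicle pool on array 1, and 4430 (γ-conglutin) and 3870 (vehicle) on array 2. It was positive on both arrays, with a ratio of 0.14 ± 0.08 (0.11 to 0.14 over the settings with both arrays), far below 1.5-fold. The intestinal sodium-glucose carrier gene Slc5a1 had 0.04 ± 0.03.

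Amino acid carriers (Slc1, Slc3, Slc6, Slc7, Slc36, Slc38 and Slc43) were the largest class, with 49 probes and a median of 0.04 (array 1 gave -0.03, array 2 0.05). There were 10 probes positive on both arrays (20.4%, against 16.6% of all probes) and 6 negative on both (12.2%, against 16.1%). Of the system A and N carriers, Slc38a2 had 0.04 ± 0.04, Slc38a3, which moves glutamine in hepatocytes, -0.08 ± 0.07, and the 2 probes of Slc38a4 0.05 ± 0.19 and 0.07 ± 0.02. The cationic amino acid carrier gene Slc7a2 had 0.03 ± 0.28 and -0.03 ± 0.23 at its 2 probes. Slc7a5 and Slc3a2, which code for both chains of the large neutral amino acid carrier, had -0.04 ± 0.16 and -0.01 ± 0.12. The cystine carrier gene Slc7a11 had 0.03 ± 0.04 at a probe not above the empty-spot level. The glutamate carrier gene Slc1a2 had -0.01 ± 0.09. Slc43a3, the highest of the class, had 0.24 ± 0.53 from opposed ratios of 0.62 and -0.14. The class follows family numbers alone, so a member, Slc43a3 included, need not carry amino acids.

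Mitochondrial carriers (Slc25) had 35 probes with a median of -0.04, and 10 were negative on both arrays (28.6%, against 16.1% of all probes) and 5 positive (14.3%, against 16.6%). Both shares are from the main processing alone. The share negative on both arrays was 26.1% for metal carriers, 23.9% for ATP-driven pumps and 0% for vitamin and choline carriers. The median was 0.01 with the deposited ratios and between -0.05 and -0.01 under the other settings with both arrays. Slc25a5, the ADP/ATP exchanger of the inner membrane, was the lowest, with 43769 in the γ-conglutin pool and 58835 in the vehicle pool on array 1, and 39842 (γ-conglutin) and 47123 (vehicle) on array 2. Its ratio of -0.33 ± 0.13 was negative on both arrays, and its probe is among the brightest on the array. Slc25a25, a calcium-regulated ATP-Mg and phosphate carrier, had -0.26 ± 0.02, and Slc25a29, a carrier of basic amino acids, -0.26 ± 0.06. For Slc25a20, which carries acylcarnitines in for fatty acid oxidation, the γ-conglutin pool had 1475 and the vehicle pool 1739 on array 1, and 1435 (γ-conglutin) and 1619 (vehicle) on array 2. The dicarboxylate carrier gene Slc25a10 had -0.21 ± 0.24, with -0.04 on array 1 and -0.39 on array 2. The citrate carrier gene Slc25a1 had 0.05 ± 0.10, and the carriers of the urea cycle, Slc25a13 (aspartate and glutamate) and Slc25a15 (ornithine), had 0.00 ± 0.11 and 0.02 ± 0.27, each with opposed signs.

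**Figure D3:**
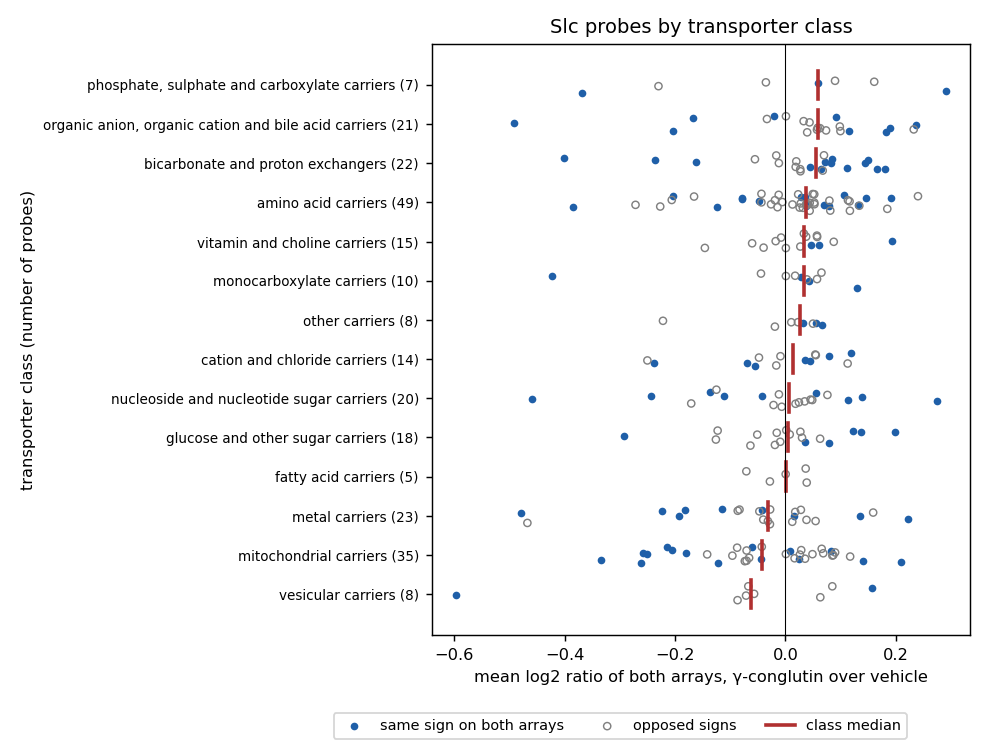
Mean log2 ratio of both arrays, γ-conglutin over vehicle, for each of the 255 Slc probes by transporter class, with filled points where both arrays gave the same sign, open points where they did not, and red bars at class medians. Class medians lie between -0.06 and 0.06, close to 0 beside the spread of single probes, which runs from -0.60 to 0.29.

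Carriers of organic anions, organic cations and bile acids (Slc10, Slc22 and Slc47) had 21 probes with a median of 0.06, of which 5 were positive and 4 negative on both arrays. Slc22a7, an organic anion carrier abundant in liver, had 17285 in the γ-conglutin pool and 19354 in the vehicle pool on array 1, and 13428 (γ-conglutin) and 15927 (vehicle) on array 2. It was lower with γ-conglutin on each array, by a ratio of -0.20 ± 0.06. The lowest of the class, Slc22a15, had -0.49 ± 0.49, from -0.15 and -0.84. Slc10a1, the sodium-dependent bile acid uptake carrier of hepatocytes, had opposed ratios of 0.26 and -0.07, and Slc10a2, its ileal counterpart, 0.14 and -0.08. The carnitine carrier gene Slc22a5 had 0.00 ± 0.17.

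Fatty acid carriers (Slc27), which also activate fatty acids to acyl-CoA, had 5 probes, and all 5 had opposed signs on the 2 arrays, as did 14603 of all 21702 probes, with medians of -0.15 on array 1 and 0.16 on array 2. Slc27a2, of very long chain fatty acids, had 0.04 ± 0.16. For Slc27a5, which activates bile acids in hepatocytes, the γ-conglutin pool had 3725 and the vehicle pool 4227 on array 1, and 3463 (γ-conglutin) and 3050 (vehicle) on array 2, so the brighter pool was the one in Alexa555 each time. Slc27a4 was the lowest, at -0.07 ± 0.20.

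Monocarboxylate carriers (Slc16) had 10 probes, a median of 0.03, and 3 probes positive and 1 negative on both arrays, the negative one being Slc16a14. The lactate and pyruvate carrier gene Slc16a1 had opposite directions on the arrays, with 6101 in the γ-conglutin pool and 4697 in the vehicle pool on array 1, and 1986 (γ-conglutin) and 2743 (vehicle) on array 2. Its ratios of 0.38 and -0.47 gave a mean of -0.04 ± 0.60. Slc16a8 was the highest of the class, at 0.13 ± 0.07.

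Metal carriers (Slc11, Slc30, Slc31, Slc39, Slc40 and Slc41) had 23 probes with a median of -0.03, of which 3 were positive and 6 negative on both arrays. Besides Slc40a1, the copper uptake carrier gene Slc31a1, chosen after its values were seen, had a mean of -0.47 that rested on 1 array, with 0.23 on array 1 and -1.16 on array 2. Slc39a5, a zinc uptake carrier, was the highest, at 0.22 ± 0.27.

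Exchangers of bicarbonate and protons (Slc4, Slc9 and Slc26) had the largest share of probes of like sign among the 14 classes, 13 of 22 (59.1%, against 32.7% of all probes). On both arrays 10 were positive (45.5%, against 16.6% of all probes) and 3 negative (13.6%, against 16.1%), and the class median was 0.05. Across the 22 probes the ratios of the 2 arrays had a Pearson's r of -0.16. The shares of the class were taken under the main processing alone. They include the non-carriers Slc9a3r2 and Slc4a1ap, and Slc4a1ap was negative on both arrays. By family, signs were alike for 4 of 5 Slc26 probes, 6 of 9 Slc4 probes and 3 of 8 Slc9 probes. The highest member of the class was Slc9a3, an epithelial sodium-proton exchanger, at 0.18 ± 0.23, and the lowest was Slc4a1ap, which is no carrier, at -0.40 ± 0.42. The class of cation and chloride carriers (Slc8, Slc12 and Slc24) had a median of 0.01 over 14 probes. Its shares were 4 positive (28.6%, against 16.6% of all probes) and 3 negative on both arrays (21.4%, against 16.1%). Its means lay between Slc24a2 (0.12 ± 0.09, the second of its probes) and Slc24a3 (-0.25 ± 0.64), both from the potassium-dependent sodium-calcium exchangers.

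Nucleoside and nucleotide sugar carriers (Slc28, Slc29 and Slc35) had 20 probes with a median of 0.01 (array 1 gave -0.08, array 2 0.12), 4 positive and 5 negative on both arrays. Slc35f5 was the highest, at 0.27 ± 0.30, and the nucleoside carrier gene Slc29a1 had 0.05 ± 0.31. Phosphate, sulphate and carboxylate carriers (Slc13, Slc20 and Slc34) had 7 probes with a median of 0.06 (array 1 gave -0.08, array 2 0.07; -0.02 with the net intensities), between Slc13a1 and the phosphate carrier gene Slc20a2 (-0.37 ± 0.29), which was negative on both arrays. Vitamin and choline carriers (Slc19, Slc23, Slc44 and Slc46) had 15 probes with a median of 0.03, between Slc44a4 (0.19 ± 0.26) and the thiamine carrier gene Slc19a2 (-0.15 ± 0.44), with 3 positive and 0 negative on both arrays.

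The class of vesicular carriers (Slc17, Slc18 and Slc32) follows family numbers alone, so not every member need be vesicular or known from neurons. It had 8 probes with a median of -0.06 (array 1 gave -0.13, array 2 0.10). Of the 8, 1 was positive on both arrays (12.5%, against 16.6% of all probes) and 1 negative on both (12.5%, against 16.1%). The vesicular glutamate carrier gene Slc17a6 held the lowest mean of all members at its second probe, with 18437 in the γ-conglutin pool and 20405 in the vehicle pool on array 1, and 10882 (γ-conglutin) and 22488 (vehicle) on array 2. The γ-conglutin pool was lower on each array, but by -0.15 on array 1 and -1.05 on array 2, a mean of -0.60 ± 0.64, and the other Slc17a6 probe had 0.08 ± 0.27. Slc18a3, the vesicular acetylcholine carrier, was the highest of the class, at 0.16 ± 0.13. The 8 probes of the remaining families (Slc14, Slc15, Slc33 and Slc48) had a median of 0.03 (array 1 gave -0.01, array 2 0.07), between the peptide carrier gene Slc15a1 (0.07 ± 0.04) and the haem carrier gene Slc48a1 (-0.22 ± 0.39).

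A panel of 37 carriers with a textbook role in liver, glucose handling or diabetes had 33 symbols on the arrays, with 35 probes. Slc2a1, Slc13a5, Slc30a8 and Slc39a14 were not analysed here. Of the 35 probes, 8 were positive on both arrays, 7 were negative on both and 20 had opposed signs, and their median was 0.00, against 0.01 over all probes. Of all 21702 probes, 16.6% were positive on both arrays, 16.1% were negative on both and 14603 had opposed signs.

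**Figure D4:**
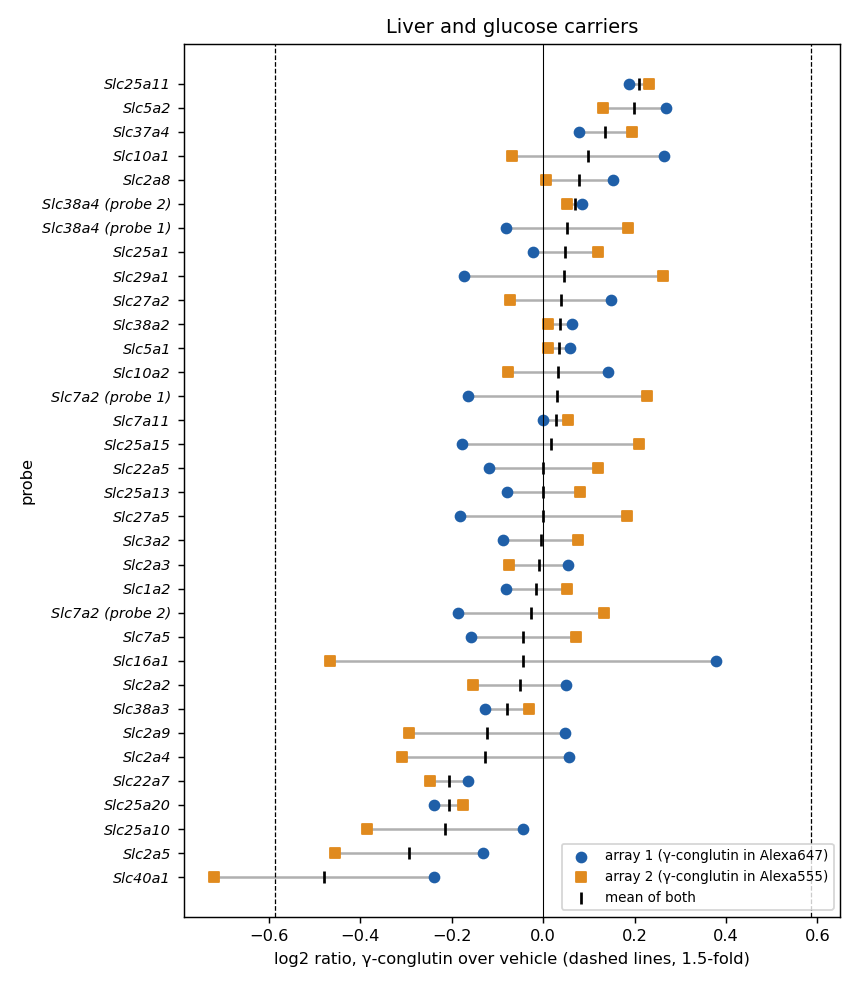
Log2 ratio, γ-conglutin over vehicle, on array 1 (circles) and array 2 (squares) and their mean (bars) for 34 of the 35 probes of the carrier panel, ordered by mean, with dashed lines at 1.5-fold. For 20 of these 34 probes the points lie on opposite sides of 0, and Slc40a1 on array 2 (-0.72) is the only point beyond 1.5-fold.

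The largest opposed ratios were those of 4 carriers. By 1.5-fold, 1 Slc probe was brighter in the same dye on each array (0.166% of all probes), that of Slc25a38, the mitochondrial glycine carrier, with 2067 in the γ-conglutin pool and 3670 in the vehicle pool on array 1, and 3768 (γ-conglutin) and 2396 (vehicle) on array 2. Its ratios of -0.83 and 0.65 point in opposite directions by pool and in the same direction by dye. Next were Slc35a2, the UDP-galactose carrier (-0.49 and 0.48), Slc13a2, a dicarboxylate carrier (-0.44 and 0.61), and Slc16a1. At 0.32 on both arrays, this held for 7 of 255 Slc probes (2.75%, against 3.42% of all probes). On single arrays, 1 member was higher and 2 were lower by 1.5-fold on array 1, and 2 were higher and 8 lower on array 2. As shares, 0.39% of members and 0.29% of all probes were higher and 0.78% and 0.68% lower on array 1, and 0.78% and 0.62% were higher and 3.14% and 2.39% lower on array 2.

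Several probes for 1 symbol let ratios be compared within a symbol. Of 17 symbols with 2 or 3 probes, 9 had probe means all above 0, 2 had means all below 0 and 6 had means of both signs. The gap between the highest and the lowest probe mean of a symbol had a median of 0.06 and ran from 0.001 (Slc9a2) to 0.68 (Slc17a6). Slc1a1 and Slc24a2 were the 2 symbols with every probe positive on both arrays, and no symbol had every probe negative on both. Probe brightness within a symbol differed by a median of 12.8-fold between the brightest and the dimmest probe, and by more than 4-fold for 13 of the 17 symbols.

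Other transport proteins on the arrays are given beside the Slc probes, and no test of a difference was made. The 13 probes of Slco organic anion carriers had a median of -0.01, the 40 of ABC transporters -0.03 and the 71 of ATP-driven pumps 0.01. Of the ABC transporters, 1 was lower by 0.32 on both arrays, against 0 of the Slco carriers and 0 of the pumps, and 0 probes in these 3 groups were higher. Probes of the same sign on both arrays numbered 3 of 13 Slco carriers, 8 of 40 ABC transporters and 31 of 71 pumps, against 32.7% of all probes.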

How the data were processed

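Per the file headers, the deposited array tables hold for each spot the mean raw and background intensity of each pool, a net intensity and the ratio of net intensities. By the values, the deposited net intensity is raw minus background in Alexa555, while in Alexa647 it is also scaled, by a method that the sources used here do not give. The deposited value table equals log2 of that ratio, Alexa555 over Alexa647 on both arrays, to within 4.4e-09, so its direction by pool is opposite on the 2 arrays. The number of arrays limits the precision.

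Intensities were corrected by normexp (offset 50) and normalised by loess within each array, without control and empty spots, in limma 3.58.1 (R 4.3.3). Array 2 was turned so that every ratio is γ-conglutin over vehicle. Spots alike in accession, gene and description were averaged (21761 probes), and 59 probes not above background by 2 SD in a channel of each array were left out, none of them a member. The fit covered all probes, without a test, since each treatment is 1 pool. The steps were also run on the data with known fold changes put into some probes. The share of these that was called is not given here, so the run does not show how many differences the counts miss. Members, classes, panel and marker lists were chosen with earlier results of these data known.

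Named were the panel, the 8 highest and 8 lowest probes by the smaller of 2 ratios of like sign, the highest and lowest of each class, the 4 probes with the largest opposed ratios and symbols with several probes. Probes below the empty-spot level, Slc31a1, Slc25a3, non-carriers and example markers were named outside this rule, after their values were seen. Values of some members are not reported here. By symbol, 233 of 236 are current rat symbols and 3 are older ones, in the gene table of GRCr8. No value given here rests on genome positions or probe sequences. Tables were made in Python 3.11.15, numpy 2.4.6 and pandas 2.3.3.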

Additional observations from a re-analysis of the deposited data

How the results depend on the processing

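All alternatives were planned. Counts of members at least 1.5-fold higher and lower on both arrays were 0 under every background correction, normalisation and filter tried. Leaving out an array, the counts on the other were 1 to 2 higher and 2 to 8 lower. At a log2 ratio of 0.32 on both arrays they were 0 and 2, with 7 of one dye ratio. At 2-fold that last count was 0, as the log2 ratio of Slc25a38 on array 2 was 0.65. Members of one dye ratio by 1.5-fold numbered 1, but 7 with median centring and 2 with the deposited net intensities or the deposited ratio. Of the 8 lowest probes by like sign, 8 stayed negative on both arrays under all settings with both arrays except median centring (5) and without the dimmest 20% of probes (7, where the probe of Slc40a1 is left out). Of the 8 highest, 4 stayed positive with median centring and 6 each with print-tip loess, the net intensities and the deposited ratio. The median of mitochondrial carriers (-0.043) was -0.0096 with the net intensities, 0.0071 with the deposited ratio, -0.018 with print-tip loess and -0.023 without the dimmest 20%. With the deposited ratio the median of monocarboxylate carriers was 0.049 and that of organic ion and bile acid carriers 0.072, the bicarbonate and proton exchangers had 0.032 with print-tip loess, and the cation and chloride carriers 0.035 without the dimmest 20%. The medians of phosphate, sulphate and carboxylate (-0.017 to 0.063), nucleoside and nucleotide sugar (-0.0067 to 0.035) and sugar carriers (-0.0030 to 0.025) also changed sign within these settings. The cause was not tested. With array 1 left out and with array 2 left out, in that order, medians were 0.029 and -0.0083 for all members, 0.053 and -0.029 for amino acid carriers, 0.022 and 0.050 for bicarbonate and proton exchangers, -0.0068 and 0.058 for sugar carriers, -0.16 and -0.064 for metal carriers, -0.018 and -0.044 for mitochondrial carriers, 0.018 and 0.0058 for organic ion and bile acid carriers, 0.066 and -0.080 for phosphate, sulphate and carboxylate carriers, 0.10 and -0.13 for vesicular carriers and 0.033 and 0.063 for vitamin and choline carriers. The other 143 of 151 medians with both arrays moved by less than 1 SD, as did 587 of 603 values of named probes, a weak check where the arrays are opposed. No paired analysis was possible because the pairing is built into every ratio (both pools on 1 array), so no fit without it exists to compare, and 1 pool per treatment leaves no replicate number to block on. Signal over background limits the dim probes, such as Slc2a2 and Slc25a13.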
